A study of Mus musculus with 2 samples.

Results

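The genes described here are Lin28a, Lin28b, Hmga1, Hmga2, Igf2bp1, Igf2bp2, Igf2bp3 and Trim71, the mammalian heterochronic set, which is named for genes that set the timing of development. They were found by symbol through their Ensembl identifiers, and all 8 have a row among the 43346 gene rows of both deposited gene tables. The tables hold total RNA-seq of neural tube, the embryonic structure that becomes brain and spinal cord, from mice of the B6NCrl strain at embryonic day 14.5. The labels name no treatment, mutation or transgene. There was 1 group of 2 libraries, each made from 10 ng of RNA longer than 200 bases with spike-in RNA added. Replicate 1 came from pup 1 of pregnant female 1 and replicate 2 from pup 1 of pregnant female 2, although the labels also give the sex as pooled. Because there was 1 group, no conditions could be compared, and no exact test on so few libraries reaches p = 0.05. Values are given per library and as mean ± SD (n = 2). A difference between the libraries describes this pair of embryos and has no p-value.

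LIN28 proteins bind the precursors of the let-7 microRNAs and keep them from being processed, and let-7 in turn represses the Lin28 messages, so that the pair forms a switch between early and late developmental states. HMGA proteins are chromatin proteins that bind AT-rich DNA, IGF2BP proteins bind and stabilise or localise messenger RNAs, and TRIM71 is a ubiquitin ligase and RNA-binding protein known from the worm gene lin-41. In neural tissue these genes are known for high expression in early progenitors and for a decline as development proceeds, while let-7 rises. miR-125, the relative of worm lin-4, is a second microRNA of this circuit.

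The let-7 family is shown first because its seed is the feature that the 8 messages share. In the RefSeq miRNA table for GRCm38.p6, 9 distinct mature microRNAs from 11 loci carried the same seed (bases 2 to 8, GAGGUAG), and 2 from 3 loci carried the miR-125 seed (CCCUGAG). Capitals mark the seed.
let-7a-5p: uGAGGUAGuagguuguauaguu
let-7g-5p: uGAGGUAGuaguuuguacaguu
miR-98-5p: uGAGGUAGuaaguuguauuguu
miR-125b-5p: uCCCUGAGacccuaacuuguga

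LIN28 is known to recognise a GGAG stretch in the loop of let-7 precursors. Searched on the hairpin's own strand between its mature arms, the letters GGAG were found in 8 of the 11 hairpins of those loci with the let-7 seed. The letters were found in 8.1% of the 644 mouse hairpins with both arms in the table. Of the 11 hairpins, those without the letters were Mirlet7b, Mirlet7c-2 and Mir98. The hairpin Mirlet7a-2 was not searched, because its locus was not among the 11 found through a mature microRNA. Below, capitals mark GGAG in the let-7g precursor from the start of its 5′ arm to the end of its 3′ arm, within the hairpin at chr9:106178840-106178927 (plus strand, GRCm38.p6), and the Mirlet7b precursor (hairpin at chr15:85707319-85707403, plus strand) shows a loop without it.
pre-let-7g: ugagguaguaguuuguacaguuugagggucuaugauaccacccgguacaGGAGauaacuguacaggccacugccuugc
pre-let-7b: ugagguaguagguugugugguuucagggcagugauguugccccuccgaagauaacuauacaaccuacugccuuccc

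All 8 genes held at least 1 match to the let-7 seed in the 3′ UTR of their main coding transcript, the coding transcript with the highest mean TPM. TPM, the share of transcripts scaled to a fixed sum, is a level per length. The match searched was CTACCTC on the transcript's strand, and 7.8% of 19940 protein-coding genes held it in a UTR chosen the same way. These genes are textbook let-7 targets, so the matches were part of what is known about them and are given as a description of sequence. There were 21 matches in all, 4 each in Lin28b, Hmga2, Igf2bp1 and Trim71, 2 in Lin28a, and 1 each in Hmga1, Igf2bp2 and Igf2bp3. Among all the genes searched, 9 held 4 or more, and 4 of these 9 belong to the set. The others, named after their values were seen, were Nr6a1 with 8, Trim6 with 6, and D10Wsu102e, Hic2 and Ptafr with 4 each. The UTR of D10Wsu102e is annotated at 122583 bases.

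UTR length bears on such counts, and the UTRs ran from 1179 bases in Hmga1 to 6337 in Igf2bp1. Like length means from 0.8 times as long up to the inverse of that ratio. Each share counts the gene itself and any other gene of the set within that range. For Hmga2 (2977 bases), 0.05% of the 1876 genes with a UTR of like length held as many matches or more. For Lin28b, Igf2bp1 and Trim71 the shares at like length were 0.4%, 0.49% and 0.67%, and for Lin28a, with 2 matches, 2.29%. For Hmga1, Igf2bp2 and Igf2bp3, with a single match, the shares were 8.35%, 12.36% and 13.0%. The match nearest the stop codon is printed for each gene as 22 bases of transcript sequence, with the seed match in capitals and the base opposite the first base of let-7 at the end. An A at that end is known to favour binding, and 13 of the 21 matches had it.
Lin28a: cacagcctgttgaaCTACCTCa
Lin28b: cccgggcgggaagtCTACCTCa
Hmga1: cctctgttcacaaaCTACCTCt
Hmga2: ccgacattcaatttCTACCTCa
Igf2bp1: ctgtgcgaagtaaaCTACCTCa
Igf2bp2: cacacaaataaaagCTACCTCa
Igf2bp3: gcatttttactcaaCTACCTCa
Trim71: acattgcctaagtcCTACCTCa

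On GRCm38 these windows lie in the 3′ UTRs at chr4:134005189-134005210 (Lin28a), chr10:45381022-45381043 (Lin28b), chr17:27563278-27563299 (Hmga1), chr10:120364224-120364245 (Hmga2), chr11:95961778-95961799 (Igf2bp1), chr16:22059473-22059494 (Igf2bp2), chr6:49086787-49086808 (Igf2bp3) and chr9:114512472-114512493 (Trim71). Hmga1 is on the plus strand and the other genes are on the minus strand. The first match began 21 bases after the stop codon in Hmga2 and 36 bases after it in Lin28b, against 1715 bases in Igf2bp1. In Trim71 the matches lay in 2 pairs, at 166 and 262 bases and at 3591 and 3617 bases after the stop codon. Matches to the miR-125 seed, CTCAGGG, were found once each in Lin28a, Lin28b, Igf2bp3 and Trim71, and 11.5% of the protein-coding genes held one. Among genes with a UTR of like length, 25.9%, 32.2%, 20.8% and 38.3% held at least 1, in that order. For the genes of the set without a match, such shares ran from 12.9% (Hmga1) to 42.3% (Igf2bp1). The matches in Lin28a and Trim71 are shown because both lie close before the first let-7 match of the gene, at 797 against 909 bases after the stop codon in Lin28a and at 79 against 166 in Trim71. They are at chr4:134005301-134005322 and chr9:114512559-114512580 (both minus strand), with the seed match in capitals.
Lin28a, miR-125: ggtacatgagcaatCTCAGGGa
Trim71, miR-125: aaagaagaaatcgtCTCAGGGa

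**Figure D1:**
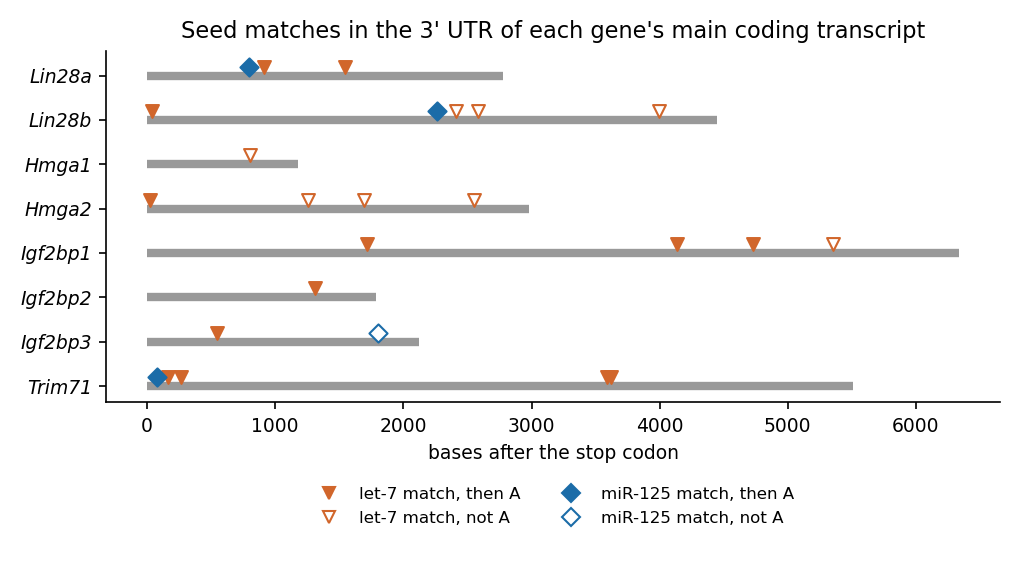
Positions of let-7 seed matches (triangles) and miR-125 seed matches (diamonds) along the 3′ UTR of the main coding transcript of each gene (grey bar, in bases after the stop codon). Filled symbols are followed by A. Lin28b, Hmga2, Igf2bp1 and Trim71 each show 4 let-7 matches, and Hmga1, Igf2bp2 and Igf2bp3 each show 1.

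Mature let-7 was not measured by these libraries, since microRNAs are far shorter than the RNA they were made from. The RefSeq table has 14 hairpin entries of let-7, miR-98 and miR-125, with Mirlet7a-2 among them and without Mir125b-2. Of these 14, 12 had a gene row and all 12 were listed at 0 counts in both libraries, 8 of them with an effective length of 0. The level of the longer RNAs that span the hairpins on the same strand was measured instead, a set chosen after the data were seen. Mir99ahg, which spans let-7c-1, had 88.9 and 91.7 TPM in replicates 1 and 2, and 3110039I08Rik, which spans let-7a-2 and miR-125b-1, had 81.78 and 88.17. The protein-coding hosts Huwe1 (let-7f-2 and miR-98), Wdr82 (let-7g) and Spaca6 (let-7e and miR-125a) had 75.7 and 52.98, 31.79 and 30.57, and 22.81 and 17.42 TPM. The RNA over let-7a-1, let-7d and let-7f-1, 6720427I07Rik, had 2.98 and 3.7 TPM. The shorter Gm28119 at miR-125b-1 had 5.46 and 4.03, and Mirlet7i, Mirlet7b and Mirlet7c-2 had no such RNA on the annotation. The level of a host RNA does not give the level of the mature microRNA.

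Expected counts, the reads that the authors' quantifier assigned to each row, totalled 33360108 in replicate 1 and 26025302 in replicate 2 with spike-ins included. Over the gene rows they totalled 32255363 and 25428747. All 10 neural tube markers reached 1 TPM in both libraries. Markers of adjoining tissue were far higher in replicate 2, where all 9 meninges and fibroblast genes (summed TPM 66.87 and 1117 in replicates 1 and 2) and all 8 ganglion genes (15.0 and 195.5) were at least 1.5-fold higher. Endothelial genes (86.45 and 196.7, 7 of 7) and microglia genes (85.97 and 151.7, 5 of 7) followed the same direction. Skeletal muscle genes (43.57 and 22.18) were lower, 7 of the 8 with enough counts. Over all genes with enough counts, 10.8% were at least 1.5-fold higher in replicate 2 and 8.75% at least 1.5-fold lower. No gene of these lists was at 0 in both libraries. In bulk tissue, fewer cells of a type and less RNA per cell cannot be told apart.

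Of the 8 genes, 6 reached 1 TPM in both libraries, and Lin28a and Trim71 stayed under it. Of 21474 protein-coding genes, 60.8% reached it. By mean TPM the levels ran from percentile 93.1 of protein-coding genes (Hmga1) to percentile 27.2 (Lin28a). Hmga1 stood alone at the top, and Igf2bp2 and Igf2bp3 formed a middle pair. Lin28b, Igf2bp1 and Hmga2 had a few TPM each. Neighbours in this order whose values overlapped between libraries were Igf2bp2 with Igf2bp3, Lin28b with Igf2bp1, Igf2bp1 with Hmga2, and Trim71 with Lin28a.

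**Figure D2:**
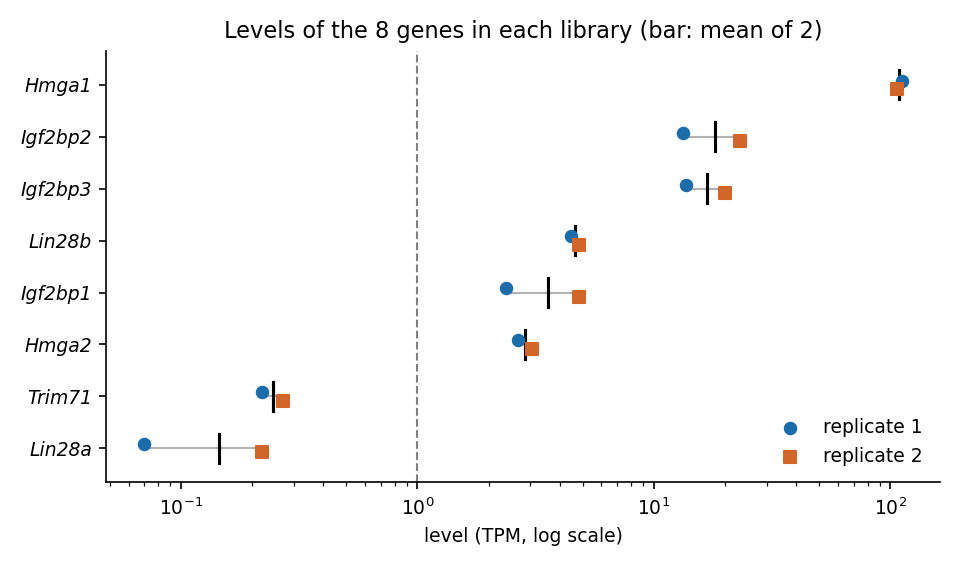
Level of each gene in TPM (log axis) in replicate 1 (circles) and replicate 2 (squares), with the mean of 2 as a black bar and 1 TPM as a dashed line. Hmga1 lies above 100 TPM in both libraries, and Lin28a and Trim71 lie to the left of the dashed line.

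Among the RNA-binding repressors of let-7, Lin28b was the higher paralogue in both libraries. Lin28b (ENSMUSG00000063804.7, chr10:45376620-45486395, minus strand) had 4.44 TPM from 477 counts in replicate 1 and 4.8 TPM from 381 counts in replicate 2, a mean of 4.62 ± 0.255. By mean TPM it was at percentile 48.4 of protein-coding genes. Lin28a (ENSMUSG00000050966.5, chr4:134003330-134018841, minus strand) had 0.07 TPM from 5 counts and 0.22 TPM from 10 counts, a mean of 0.145 ± 0.106. This level is uncertain, since the mean over both libraries of the deposited posterior mean TPM was 0.67 for Lin28a and 0.24 for Trim71, which turns their order. The deposited credibility bounds of Lin28a, 0.123 to 0.982 TPM and 0.251 to 1.55 TPM, lie above both printed values and reach past 1 TPM in replicate 2. Of the summed TPM of the pair, Lin28b made up 98.4% in replicate 1 and 95.6% in replicate 2. As log2(TPM + 1), a scale that understates differences of low genes, Lin28b exceeded Lin28a by 2.35 and 2.25, a mean of 2.30 ± 0.068. The plain TPM ratio was 63.4 and 21.8 and rests on the 5 and 10 counts of Lin28a. A gene on the other strand, Gm13061, overlaps Lin28a and had 3 and 0 counts. No source used here gives the strand setting of the authors' counting, so reads of a gene and of one on its other strand may not have been kept apart.

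The ubiquitin ligase gene Trim71 (ENSMUSG00000079259.2, chr9:114507133-114564369, minus strand) had 0.22 TPM from 41 counts in replicate 1 and 0.27 TPM from 37 counts in replicate 2, a mean of 0.245 ± 0.0354. Its level per length was low in both libraries, over a single transcript model of 9332 bases against 3505 for Lin28a-201. Its values overlapped those of Lin28a, whose replicate 2 value was also 0.22.

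Hmga1 far exceeded its paralogue Hmga2 in both libraries. Hmga1 (ENSMUSG00000046711.11, chr17:27556497-27563674, plus strand) had 111.79 TPM from 3420 counts in replicate 1 and 106.3 TPM from 2388 counts in replicate 2, a mean of 109.0 ± 3.88. Hmga2 (ENSMUSG00000056758.10, chr10:120361275-120476469, minus strand) had 2.67 TPM from 195 counts and 3.04 TPM from 164 counts, a mean of 2.86 ± 0.262. The TPM of Hmga1 was 41.9 times that of Hmga2 in replicate 1 and 35.0 times in replicate 2. As log2(TPM + 1), Hmga2 minus Hmga1 was -4.94 and -4.73, a mean of -4.84 ± 0.149. A separate gene on chromosome 11, Hmga1b, is a close copy of Hmga1 and had 1.7 and 0.4 TPM. The deposited posterior SD of the count was 12.9 and 7.18 reads for Hmga1 and 12.89 and 7.18 for Hmga1b. How many reads could belong to either gene was not tested. AI413582, on the other strand, overlaps Hmga1 and had 55.54 and 44.14 TPM.

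The transcript models of Hmga1 fall into reading frames with and without a stretch of 11 codons, the difference between the protein forms known as HMGA1a and HMGA1b (the latter not to be confused with the gene Hmga1b). The 3 models with the stretch, of 106 or 107 codons, held 78.3% of the TPM of the gene in replicate 1 and 74.6% in replicate 2. The 3 models without it, of 95 or 96 codons, held 21.7% and 25.4%. Hmga1-203, with 106 codons, alone held 70.88% and 64.99%, and Hmga1-204, with 96 codons, held 13.44% and 16.01%. The longer form led in both libraries, and the difference between libraries was smaller than that between forms. The split among models is less sure than the sum, with a posterior SD of 104.7 reads on the 280.2 counts of Hmga1-201 in replicate 1. Reading frames are from release 21 of the annotation, matched by transcript identifier. The length of Hmga1-203 differs between that release and the deposited tables. Among the main coding transcripts searched for seed matches, that of Igf2bp3, Igf2bp3-201, differs in length as well. For Hmga2, Hmga2-201 held nearly all TPM, as the coding share was 96.3% and 97.7%.

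The Igf2bp genes, whose proteins bind messages such as Actb and Igf2, summed to 29.33 TPM in replicate 1 and 47.91 in replicate 2. Igf2bp2 (ENSMUSG00000033581.12, chr16:22059009-22163299, minus strand) had 13.24 TPM from 809 counts and 23.19 TPM from 1051 counts, a mean of 18.2 ± 7.04. Igf2bp3 (ENSMUSG00000029814.8, chr6:49085223-49214957, minus strand) had 13.73 TPM from 1181 counts and 19.92 TPM from 1266 counts, a mean of 16.8 ± 4.38. The order of Igf2bp2 and Igf2bp3 differed between the libraries, since Igf2bp3 was the higher in replicate 1 and Igf2bp2 in replicate 2. Igf2bp1 (ENSMUSG00000013415.5, chr11:95957163-96005940, minus strand) had 2.36 TPM from 356 counts and 4.8 TPM from 532 counts, a mean of 3.58 ± 1.73. It was the lowest of the family in both libraries and made up 8.0% and 10.0% of the sum. As log2(TPM + 1), Igf2bp1 minus Igf2bp2 was -2.08 and -2.06 (mean -2.07 ± 0.016), and Igf2bp1 minus Igf2bp3 was -2.13 and -1.85 (mean -1.99 ± 0.199). Malsu1, on the other strand, overlaps Igf2bp3 and had 46.76 and 49.1 TPM.

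Most of the Igf2bp2 signal lay in transcripts annotated as retained introns, which do not encode the full protein. Its TPM was 74.1% (replicate 1) and 66.9% (replicate 2) from these models, with Igf2bp2-207 at 48.65% and 44.09%. Coding transcripts held 25.9% and 32.1%, chiefly Igf2bp2-201 (25.84% and 27.78%). By counts the coding share was 32.6% and 39.1%, since short models take much TPM from few counts. Igf2bp2-205, of 616 bases, held 9.21% and 7.88% of TPM from 12.8 and 14.2 counts. Counted over coding transcripts alone, an alternative chosen after the data were seen, Igf2bp2 had 3.42 and 7.44 TPM, a mean of 5.43 ± 2.84. In both libraries that is below Igf2bp3, whose single coding model holds all of its TPM. Igf2bp1 minus Igf2bp2 was then -0.60 on the log2(TPM + 1) scale. The posterior SD was 41.55 reads on the 263.4 counts of Igf2bp2-201 in replicate 1 and 51.3 on 366.4 in replicate 2. Total RNA includes unspliced nuclear RNA, and reads from it cannot be told apart from retained introns here. For the other genes the coding share was at least 88.4%. In Igf2bp1 the short non-coding Igf2bp1-202 took 10.93% and 10.16% of TPM from only 3.1 and 4.3 counts. Lin28a-204 took 10.45% in replicate 2 from 0.1 counts.

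**Figure D3:**
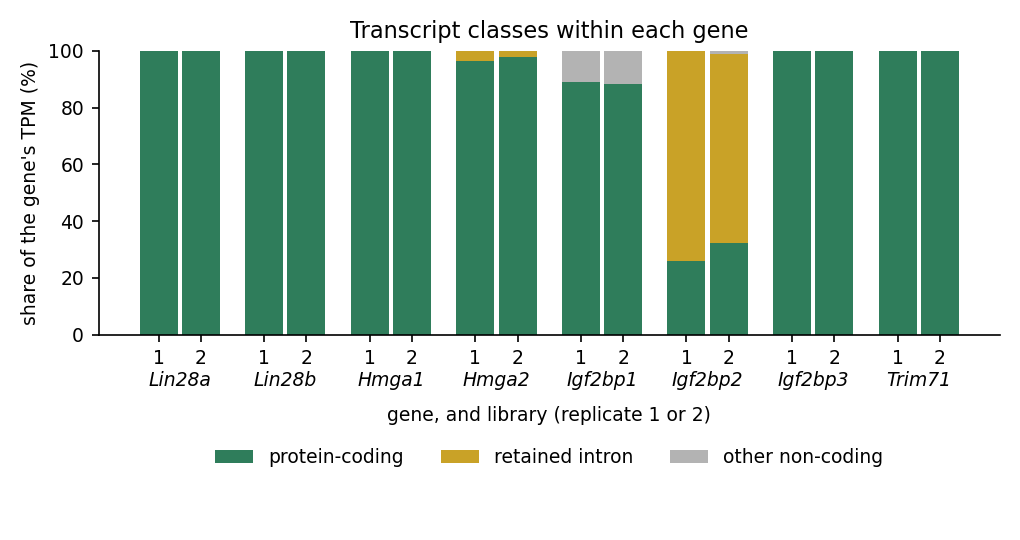
Share of the TPM of each gene, in percent, held by protein-coding, retained-intron and other non-coding transcripts in replicate 1 and replicate 2. Igf2bp2 stands apart, with coding shares of 25.9% and 32.1%.

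Between the libraries, Igf2bp1 and Igf2bp2 were at least 1.5-fold higher in replicate 2, 2 of the 7 genes whose counts averaged 10 or more. Lin28a did not reach that count. Of 17623 genes that did, 10.8% were at least 1.5-fold higher in replicate 2 and 8.75% at least 1.5-fold lower, and no gene of the set was as much lower. Ratios here are of counts scaled by TMM, a normalisation of library size, with 95% counting intervals in square brackets that cover counting error only. Igf2bp1 was 1.89-fold [1.65 to 2.17] higher and Igf2bp2 1.645-fold [1.5 to 1.805] higher. Over the counts of its coding transcripts alone, Igf2bp2 was 1.979-fold higher. Igf2bp3, at 1.357-fold [1.253 to 1.471], had the same direction but did not reach 1.5-fold.

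Lin28b, Hmga2 and Hmga1 lay nearer to 1. Lin28b had a ratio of 1.01 [0.882 to 1.16], Hmga2 of 1.06 [0.860 to 1.32] and Hmga1 of 0.884 [0.839 to 0.932]. Trim71 (1.14 [0.713 to 1.83]) and Lin28a (2.53 [0.789 to 9.44]) had too few counts for 1.5-fold to be told from no difference. The median log2 ratio of the 7 genes was 0.19, beside -0.01 over all 17623 genes. The meninges, ganglion, endothelial and microglia lists were higher in replicate 2 as well, with median log2 ratios of 4.28, 4.46, 1.08 and 0.67. Their part in the Igf2bp ratios was not tested.

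Scaling by spike-ins instead of TMM raised every log2 ratio by 0.55 and placed 5 of the 7 genes at least 1.5-fold higher in replicate 2, beside 44.3% of all genes. Hmga1, at 0.884 by TMM, turned to 1.29 under it. Relative to that shift the order of the genes is the same by construction.

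**Figure D4:**
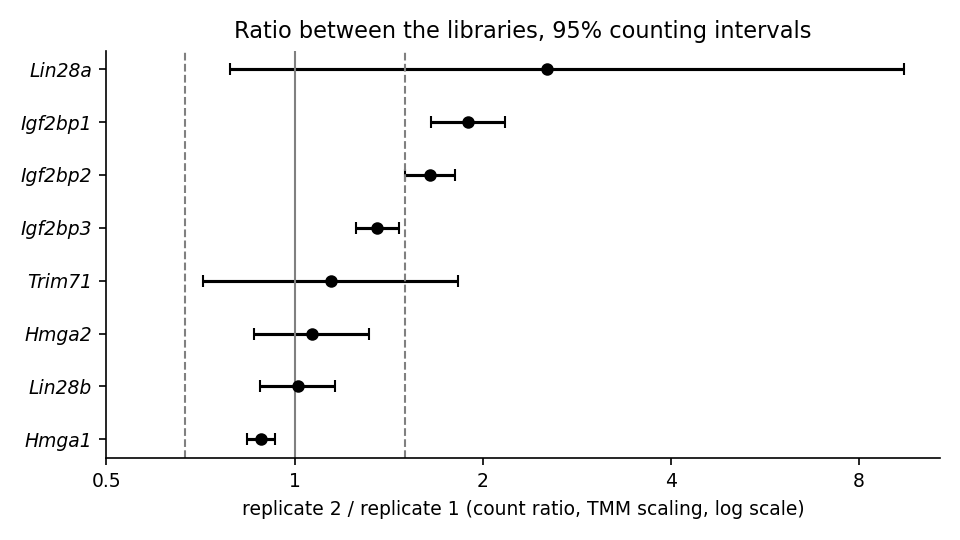
Ratio of replicate 2 to replicate 1 for each gene (points, TMM-scaled counts, log axis) with 95% counting intervals as bars, the solid line at 1 and dashed lines at 1.5-fold. Igf2bp1, Igf2bp2 and Lin28a lie past the right dashed line, but the interval of Lin28a, at 5 and 10 counts, spans from 0.789 to 9.44.

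The let-7 processing list covers the nucleases, their partners and the factors that act on let-7 precursors with LIN28. It also holds Xpo5, the Ago genes, Hnrnpa1 and Khsrp. All 17 of its genes reached 1 TPM in both libraries. None was 1.5-fold apart in either direction, beside 10.8% of all genes higher in replicate 2 and 8.75% lower. The ratios of the 17 ran from 0.808 to 1.29 with a median log2 ratio of 0.07. The highest were the RNA-binding protein gene Hnrnpa1 (476.91 and 556.18 TPM), the helicase gene Ddx5 (352.64 and 396.56), and the Dicer partner genes Prkra (94.92 and 94.5) and Tarbp2 (69.61 and 70.63). Processed copies of Hnrnpa1 are known, and whether its reads were split with them was not tested. Genes outside the naming rule, chosen after their values were seen, are those of the LIN28 route. The uridylyltransferase genes Tut4 and Tut7, whose proteins tail let-7 precursors bound by LIN28, had 50.55 and 45.85 TPM and 19.88 and 27.36 TPM. The exonuclease gene Dis3l2, which degrades the tailed precursors, had 30.94 and 30.52. The nuclease genes Drosha (46.59 and 54.22) and Dicer1 (12.33 and 14.47) were detected as well. These levels exceed those of Lin28b in each library.

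Of 22 genes taken as known let-7 targets outside the set, 21 reached 1 TPM in both libraries and Nr2e1 had 0 counts in both, which allows up to 3 counts per library. In their main UTR, 13 of the 22 held the let-7 seed match, beside 7.8% of 19940 protein-coding genes. Since these genes were taken as known let-7 targets, the matches are given as a description of sequence. Among the highest were the small GTPase genes Hras (132.08 and 124.43 TPM) and Nras (52.06 and 63.82). Between the libraries, 2 of 21 were at least 1.5-fold higher in replicate 2 and 1 was lower, near the shares over all genes. The cyclin gene Ccnd2 was 1.73-fold [1.63 to 1.84] higher and Dtl was 1.60-fold [1.33 to 1.92] higher. The growth factor receptor gene Igf1r had a ratio of 0.583 [0.535 to 0.635]. Under spike-in scaling Igf1r had a ratio of 0.853, which is no longer 1.5-fold lower. The median log2 ratio of the list was 0.16. The cell cycle list had a median log2 ratio of 0.47 and the early progenitor list 0.43. Of their genes, 2 of 6 and 1 of 8 were at least 1.5-fold higher, beside 10.8% of all genes. The part of these lists in the ratios of the let-7 targets was not tested.

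All 8 RNAs listed as known clients of IGF2BP proteins reached 1 TPM in both libraries. The highest were the actin gene Actb (5708.8 and 5745.21 TPM), the growth cone gene Gap43 (1195.48 and 1128.17) and the microtubule-associated protein gene Mapt (778.59 and 743.99). Igf2, the growth factor gene after which the family is named, had 19.12 and 138.05 TPM and was 6.49-fold [5.91 to 7.12] higher in replicate 2. H19, the non-coding RNA of the same imprinted locus, had 15.58 and 78.62 TPM and was 5.05-fold [4.55 to 5.61] higher. The adhesion gene Cd44 had 3.56 and 7.1 TPM and was 2.02-fold [1.73 to 2.38] higher. These 3 were the only members of the list past 1.5-fold, 3 of 8 beside 10.8% of all genes higher in replicate 2. The median log2 ratio of the list was 0.06. Igf2, H19 and Cd44 were higher in the same library as the meninges and fibroblast markers. Of those markers, Col3a1 (9.7 and 419.22 TPM) and Dcn (21.07 and 115.21) were picked after their values were seen. The part of that tissue was not tested.

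Genes of early and late progenitors give the setting of these levels. Those named here were chosen after their values were seen. All 9 genes of the late, gliogenic list were at 1 TPM or more in both libraries, with list medians of 44.56 and 56.13 TPM. None was 1.5-fold apart, beside 10.8% of all genes higher in replicate 2 and 8.75% lower. Nfib, a nuclear factor of the gliogenic phase, had 87.87 and 92.22 TPM and Nfia 39.18 and 44.68. Of the 8 early progenitor genes, with list medians of 8.43 and 12.07 TPM, 6 reached 1 TPM in both. Sox1 (0.83 and 0.76) and Sox3 (0.53 and 0.48) did not. Sox2 had 8.43 and 13.43 TPM, Hes5 32.34 and 49.09, and Vim, the highest of the early list, 377.99 and 501.14. Fetal blood-forming cells are also known to express Lin28b, and erythroid genes were present, with a summed TPM of 11180 and 10600. Of the 10 genes of that list, 4 were at least 1.5-fold higher in replicate 2, beside 10.8% of all genes. Klf1, among the 4, had only 10 and 14 counts and a counting interval of 0.732 to 4.46. The median log2 ratio of the list was 0.08. Its most abundant genes, Hba-a2 (4849.0 and 4312.1 TPM) and Hbb-bs (2512.29 and 1783.7), had ratios of 0.832 and 0.671, and the embryonic globin gene Hbb-y (196.42 and 1126.23) had 5.36. The part of blood cells in the level of Lin28b was not tested.

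**Figure D5:**
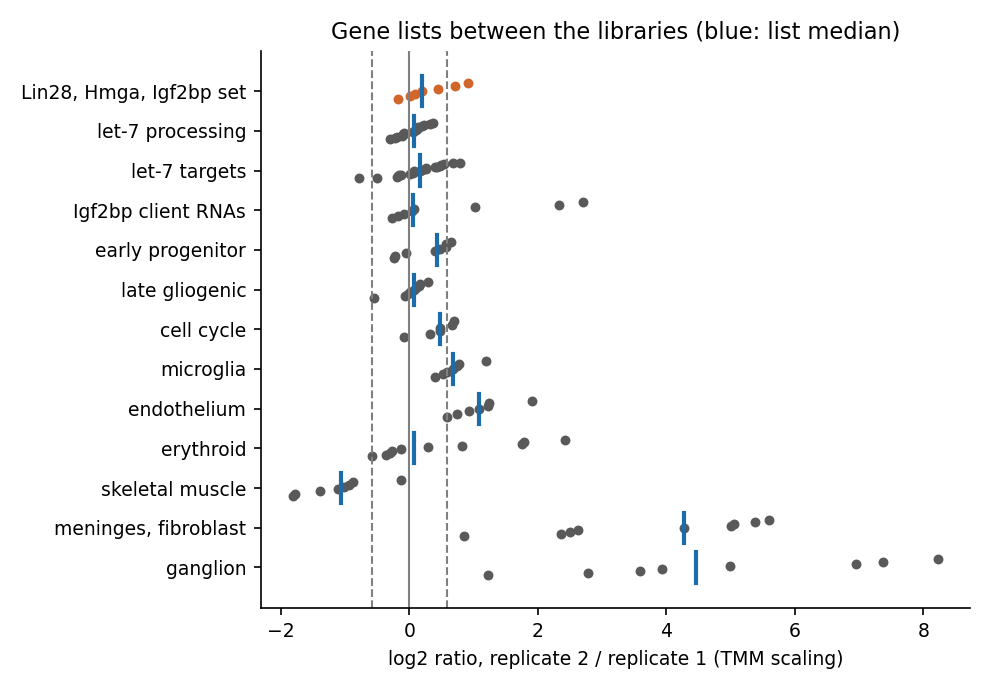
Log2 ratio of replicate 2 to replicate 1 (TMM-scaled counts) of each gene with a mean count from 10 up, by list, with the list median in blue and dashed lines at 1.5-fold. The Lin28, Hmga and Igf2bp set (7 of the 8 genes, orange) lies within 1 log2 unit of 0, while the meninges and ganglion lists have medians of 4.28 and 4.46.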

How the data were processed

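Total RNA of 2 mouse neural tube libraries was read from the deposited tables. The texts deposited with the files name mm10 as the assembly and mouse GENCODE release 4 as the annotation. No source used here names the aligner, the quantifier or the strand setting. Expected counts, as deposited, are the reads estimated for a gene or transcript, with no normalisation. TPM, as deposited, is per length and scaled over every row including spike-ins. FPKM, as deposited, divides by effective length and by depth. Transcript percent, as deposited, is the part of the TPM of its gene. Of the score columns the authors deposited, the posterior SD of the count and, for Lin28a, the credibility bounds of TPM were used.

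Symbols, 1-based coordinates and UTRs are those of GENCODE release 21 (GRCm38, also called mm10), and 42462 of 43346 gene rows matched. UTR sequences are from the transcripts of that release. Expected counts were rounded to whole numbers. TMM scaling used edgeR 4.0.16 in R 4.3.3 over the gene rows, and DESeq2 1.42.0 gave an alternative. A count of 0 was replaced by 0.5 in ratios, and counts of genes 1.5-fold apart needed a mean count of 10. Exact Clopper-Pearson intervals (95%) on the pair of counts, and the floor of 3 counts, hold counting error alone, as amplified reads are not independent molecules. Figures used matplotlib 3.10.9, intervals SciPy 1.17.1, and tables pandas 2.3.3 with NumPy 2.4.6 under Python 3.11.15. The ratio and site searches were tested on simulated data. Alternatives covered thresholds, pseudocounts, scaling, FPKM, posterior mean TPM, single libraries, seed lengths and the longest UTR.

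The 8 genes and the gene lists were chosen with earlier results of these data known. The rule named the 8 genes, their transcripts with at least 10% of TPM, and of each pathway list the 4 highest genes, those 1.5-fold apart and those under 1 TPM. Some genes that it names are not reported here, though list counts and medians include them. With 2 libraries, no likeness of pattern between genes was computed.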

Additional observations from a re-analysis of the deposited data

How the results depend on the processing

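With 2 libraries no spread across animals can be estimated well, and for Lin28a and Trim71 the depth (at most 10 and 41 counts) limits any ratio. Of 208 alternatives over 41 results, 160 moved the value by less than its spread or interval or, for counts of genes, by under 1.5 times. Levels, paralogue differences and coding shares without a library are among them by construction, since leaving out 1 of 2 moves a mean by less than its SD, and say nothing of stability: the Igf2bp1 level was then 2.36 or 4.8 TPM and that of Lin28a 0.07 or 0.22. With posterior mean TPM the Lin28a level was 0.67, above Trim71. The Hmga1 ratio crossed 1 under spike-in scaling (1.29). No paired analysis was possible because there was 1 group.

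The count of genes at 1 TPM in both libraries stayed within 1.5 times of 6 under all its alternatives. The paralogue differences (log2) kept their sign. For pseudocounts, FPKM and rescaled TPM this holds by construction, since they keep the order of genes within a library. With pseudocounts of 0.1 and 0.01, Lin28b minus Lin28a was 4.34 and 5.09, Hmga2 minus Hmga1 -5.21 and -5.25, Igf2bp1 minus Igf2bp2 -2.34 and -2.38, and Igf2bp1 minus Igf2bp3 -2.26 and -2.29. With FPKM the first 3 were 1.79, -4.61 and -1.91. With posterior mean TPM, Lin28b minus Lin28a was 1.72, Igf2bp1 minus Igf2bp2 -1.89 and Igf2bp1 minus Igf2bp3 -1.74. With TPM rescaled over nuclear genes, Lin28b minus Lin28a was 2.41 and Igf2bp1 minus Igf2bp2 -2.10. Over coding transcripts alone, chosen after seeing the data, Igf2bp1 minus Igf2bp2 was -0.60, since most Igf2bp2 TPM is in non-coding models.

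Spike-in scaling, which shifts every ratio alike, placed 44.3% of all genes at least 1.5-fold higher in replicate 2 and 2.4% as much lower. Beside these shares, 5 of 7 genes of the set, 10 of 17 let-7 processing genes, 14 of 21 let-7 targets and 5 of 8 client RNAs were higher. Of the let-7 targets, 0 were as much lower. At 2-fold, 0 genes of the set and 0 let-7 targets were higher and 0 targets lower. The share of all genes at 2-fold was not computed, so these counts cannot be set against it. With deposited TPM, 4 of 21 let-7 targets were at least 1.5-fold higher, beside 12.9% of all genes. Of let-7 matches, 13 were followed by A. With seed bases 2 to 7, 7 genes held 12 miR-125 matches. The share of protein-coding genes with this shorter match was not computed, so no excess can be read from the count.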
